A study of Homo sapiens with 4 samples.

Results

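The insulin-like growth factor (IGF) system was followed in A375 cells, a human melanoma line in long use, through 10 genes chosen by name: the binding proteins IGFBP2 to IGFBP7, the receptors IGF1R, IGF2R and INSR, and the receptor substrate IRS2. All 10 were found by symbol among the 56832 genes of the deposited table. The cells, labelled wild type, received octanoate, a saturated medium-chain fatty acid, at 1 mM for 48 h, or the isopropanol vehicle at 0 mM octanoate for the same time, with 2 libraries per group. All were grown in serum-containing medium. The labels do not say whether the libraries of a group came from separate cultures, so the tests measure the spread between these libraries, which may be technical.

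IGF1 and IGF2 are secreted growth factors that act through IGF1R, a receptor tyrosine kinase, and through its close relative INSR, the insulin receptor. Active receptors phosphorylate the docking proteins IRS1 and IRS2, which recruit phosphoinositide 3-kinase and lead to activation of AKT. Binding proteins hold IGFs outside the cell and, depending on context, block or prolong their action, and proteases such as pappalysin release the growth factor by cutting them. IGF2R has no kinase domain. It takes up IGF2 for degradation and carries mannose 6-phosphate-tagged enzymes to lysosomes.

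Read counts normalised by a size factor per library were compared with limma. A gene was called at a Benjamini-Hochberg adjusted p under 0.05 over 20250 tested genes. Recovered read totals lay between 67785956 and 78005035 per library, and each member rested on 1012 to 19158 reads per library. Replicates differed by more than sampling noise, with a chi-square per degree of freedom of 5.28 in the vehicle group and 7.31 in the octanoate group. The lineage factor SOX10 was abundant, with 34072 to 41363 normalised counts, whereas the pigment enzyme gene TYR had 1.93 to 3.93, and 7 of 8 melanocyte lineage markers had a mean of at least 10. Their summed level was 45003 to 49284 in vehicle and 38530 to 43603 in octanoate. SOX10 made up most of it and was not called (log2 difference -0.12, limma adjusted p 0.209), while S100B (-1.12, limma adjusted p 9.15e-12) and MITF (-0.48, limma adjusted p 2.33e-06) were called lower and PMEL (0.55, limma adjusted p 0.0289) higher. Of 9 markers of immune, epithelial, endothelial and fibroblast cells, 6 had a mean of at least 10. Their sum was 1799 to 1975 in vehicle and 1140 to 1222 in octanoate. The keratin gene KRT14 was called lower (log2 difference -2.08, limma adjusted p 2.4e-13) and the endothelial gene PECAM1 higher (0.95, limma adjusted p 1.05e-05), and EPCAM, CDH5, DCN and LUM were not called. The part of these marker shifts in the results below was not tested. None of the other-type markers was at 0 in every library, the lowest being CD3E with 1.08 to 2.91. In bulk RNA, fewer cells of a type and less RNA per cell cannot be told apart.

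The starts of 4 members that changed are shown to place the results on the genome: IRS2 had the largest rise among the members, INSR was the receptor gene that rose, IGFBP5 had the largest fall, and IGFBP4 was the most abundant binding protein per exon length. Each window is 300 bases from RefSeq (GRCh38.p14), 250 before the start site and 50 from it, read 5′ to 3′ on the gene's strand. Capitals mark matches on either strand to GGGCGG (a GC box), CCAAT or TATAAA.
IRS2, chr13:109786534-109786833, minus strand: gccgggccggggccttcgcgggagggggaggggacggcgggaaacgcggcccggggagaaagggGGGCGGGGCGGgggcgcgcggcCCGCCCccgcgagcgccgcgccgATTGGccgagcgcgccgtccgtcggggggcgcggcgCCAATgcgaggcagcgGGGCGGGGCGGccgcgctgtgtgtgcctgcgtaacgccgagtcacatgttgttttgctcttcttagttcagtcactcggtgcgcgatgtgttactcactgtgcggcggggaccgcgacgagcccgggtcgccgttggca
INSR, chr19:7294365-7294664, minus strand: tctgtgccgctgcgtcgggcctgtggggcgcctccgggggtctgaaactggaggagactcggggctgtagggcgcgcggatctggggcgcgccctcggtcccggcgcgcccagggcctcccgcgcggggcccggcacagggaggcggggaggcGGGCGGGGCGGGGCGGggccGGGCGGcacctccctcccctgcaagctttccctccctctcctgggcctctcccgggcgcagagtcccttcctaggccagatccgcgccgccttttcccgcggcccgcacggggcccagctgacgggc
IGFBP5, chr2:216695500-216695799, minus strand: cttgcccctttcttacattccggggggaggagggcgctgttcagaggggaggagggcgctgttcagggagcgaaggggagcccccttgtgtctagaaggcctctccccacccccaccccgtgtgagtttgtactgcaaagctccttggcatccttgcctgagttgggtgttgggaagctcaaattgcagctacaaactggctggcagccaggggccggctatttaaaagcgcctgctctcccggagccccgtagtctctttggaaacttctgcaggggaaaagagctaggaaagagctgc
IGFBP4, chr17:40443200-40443499, plus strand: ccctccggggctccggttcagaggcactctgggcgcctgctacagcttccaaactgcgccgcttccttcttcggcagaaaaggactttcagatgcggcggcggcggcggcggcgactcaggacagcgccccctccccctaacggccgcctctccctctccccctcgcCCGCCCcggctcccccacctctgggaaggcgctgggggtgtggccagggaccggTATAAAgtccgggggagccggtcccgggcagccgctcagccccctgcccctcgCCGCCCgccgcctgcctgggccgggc

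The IRS2 window held 5 matches to GGGCGG and 2 to CCAAT, and the INSR window held 4 matches to GGGCGG. Of the GGGCGG matches, 4 of 5 in IRS2 and 3 of 4 in INSR overlap a neighbouring one. The IGFBP4 window held a TATAAA match whose first base lies 29 bases before the start site, and 2 matches to GGGCGG. The IGFBP5 window matched none of 8 motifs searched, which also included CACGTG (an E-box bound by MITF and TFE3), TGTTTAC (forkhead core), TGACGTCA (cAMP response element), TGATGNAA (ATF4 motif) and TGANTCA (AP-1). Over 35116 RefSeq windows of this length, 45% held GGGCGG, 34.6% CCAAT, 11.5% TATAAA, 7.26% CACGTG, 3.42% TGTTTAC, 1.85% TGACGTCA, 3.62% TGATGNAA and 7.71% TGANTCA. Windows were found for 9 of the 10 members, all but IGFBP7. Among the other members, IGFBP6 had 1 match to TGTTTAC, and IGF2R had 3 matches to CACGTG. Matches to the GC box were not confined to members that rose. IGF2R, which was not called, had 6, more than IRS2 or INSR. IGF1R and IGFBP3, also not called, had 2 each. Of the members called lower, IGFBP6 had 1, and IGFBP2, which has several windows, had at most 1 in each. These matches describe letters and not bound sites.

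Under octanoate 7 of the 10 members were called, 3 higher (IRS2, INSR and IGFBP7) and 4 lower (IGFBP2, IGFBP4, IGFBP5 and IGFBP6). IGF1R, IGF2R and IGFBP3 were not called. Of all tested genes 29.9% were called, 16.2% higher and 13.7% lower. The share was 38.1% for the 9003 genes that averaged 1000 or more normalised counts, a level that all 10 members reached. The groups did not overlap for 8 members, against 63.1% of all tested genes. The median log2 difference, octanoate minus vehicle, was -0.06 over the members and 0.01 over all tested genes. Every change was below 1.5-fold on the linear scale, the widest being a 1.40-fold rise of IRS2.

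**Figure D1:**
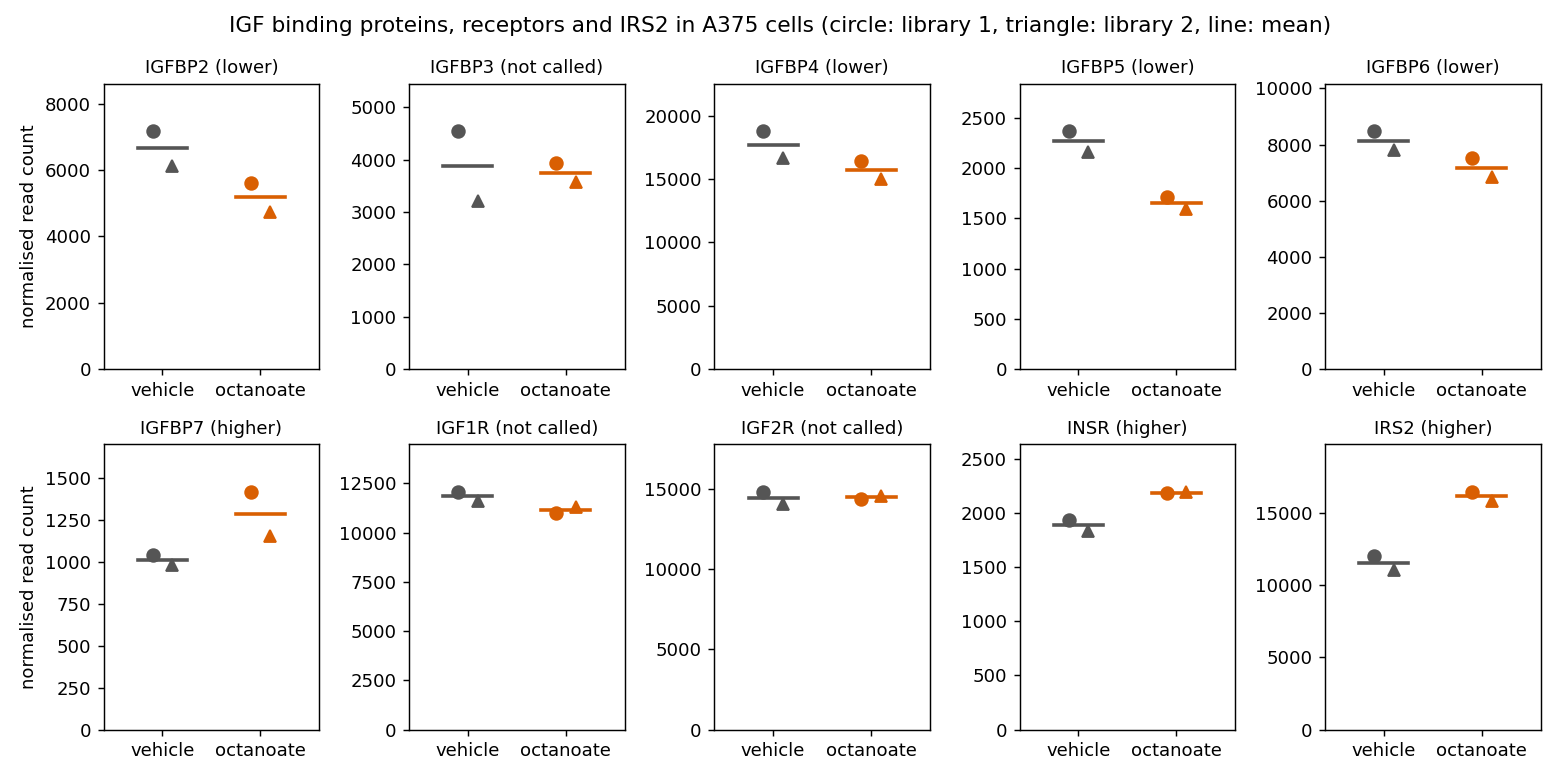
Normalised read count (vertical axis, from 0) of each of the 10 members in the vehicle and octanoate libraries. Circles are library 1, triangles library 2 and lines the group means. IRS2, INSR and IGFBP7 lie higher in both octanoate libraries, IGFBP2, IGFBP4, IGFBP5 and IGFBP6 lower, and the groups overlap for IGFBP3 and IGF2R.

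The binding proteins fell in 4 of 6 cases. IGFBP5 (ENSG00000115461, chromosome 2, 216672105 to 216695525, minus strand, GRCh38), which encodes a binding protein with a heparin-binding basic region, had 2368 and 2163 normalised counts in vehicle libraries 1 and 2 and 1711 and 1595 in octanoate libraries 1 and 2. Both octanoate libraries lay well below both vehicle libraries. The mean fell by 27.0%, from 2266 ± 145 to 1653 ± 82.1 (± SD, n = 2 each), or -0.45 on the log2 scale (SE 0.07, adjusted p 1.98e-05 by limma). IGFBP2 (ENSG00000115457, chromosome 2, 216632828 to 216664436, plus strand), whose product can also bind integrins through an RGD motif, had 7173 and 6135 in vehicle and 5596 and 4749 in octanoate. The groups did not overlap, although vehicle 2 and octanoate 1 differed by less than the vehicle libraries did. The mean fell by 22.3%, from 6654 ± 734 to 5173 ± 599 (± SD, n = 2 each), or -0.36 on the log2 scale (SE 0.07, adjusted p 0.000568 by limma). In the authors' deposited table the log2 fold change of IGFBP2 was also -0.36, with a standard error of 0.16 and an adjusted p of 0.0866, and the gene was not called there.

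IGFBP2 and IGFBP5 are neighbours. They face each other tail to tail on chromosome 2 with a gap of 7668 bases and no annotated gene between them in GENCODE 29. IGFBP1 and IGFBP3 form the other such pair, on chromosome 7, with a gap of 18576 bases. Both genes of the first pair fell. Neither gene of the second pair was called, and IGFBP1 had only 12.5 to 14.7 normalised counts in any library.

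IGFBP4 (ENSG00000141753, chromosome 17, 40443461 to 40457731, plus strand) encodes a binding protein known mainly as an inhibitor of IGF action and as a substrate of pappalysin. Its counts were 18804 and 16689 in vehicle and 16423 and 15000 in octanoate. The groups did not overlap, but vehicle 2 and octanoate 1 lay close together. The mean fell by 11.5%, from 17747 ± 1496 to 15711 ± 1006 (± SD, n = 2 each), or -0.17 on the log2 scale (SE 0.06, adjusted p 0.0408 by limma). IGFBP6 (ENSG00000167779, chromosome 12, 53097436 to 53102345, plus strand), whose product prefers IGF2 over IGF1, had 8476 and 7807 in vehicle and 7525 and 6828 in octanoate. Its mean fell by 11.9%, from 8141 ± 473 to 7176 ± 493 (± SD, n = 2 each), or -0.18 on the log2 scale (SE 0.06, adjusted p 0.0286 by limma). Leaving out a library leaves 1 in its group, which is then assumed to vary like the other group. Both calls were lost without vehicle 1 (IGFBP4 -0.09, IGFBP6 -0.12) and without octanoate 2 (-0.11 for both), with limma adjusted p of 0.264 to 0.416.

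IGFBP3 (ENSG00000146674, chromosome 7, 45912245 to 45921874, minus strand) encodes the main carrier of IGFs in blood. It had 4543 and 3199 normalised counts in vehicle and 3931 and 3565 in octanoate. Both octanoate values lay between the vehicle values. The means were 3871 ± 950 and 3748 ± 258 (± SD, n = 2 each), and the log2 difference of -0.03 had a 95% interval from -0.23 to 0.17 (limma adjusted p 0.874). Its direction depended on which vehicle library was kept: the log2 difference was 0.23 without vehicle 1 (limma adjusted p 0.0480) and -0.28 without vehicle 2 (limma adjusted p 0.0141). Each of these fits sets a single vehicle library against the octanoate group and has no measure of the spread within vehicle.

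IGFBP7 moved the other way. It encodes a secreted member of the family that binds IGFs only weakly and lacks the C-terminal domain of the classical members (ENSG00000163453, chromosome 4, 57030773 to 57110385, minus strand). Its counts were 1039 and 980 in vehicle and 1419 and 1155 in octanoate. Both octanoate libraries were above both vehicle libraries, with a wider spread between them than in vehicle. The mean was 27.4% higher, 1287 ± 186 against 1010 ± 41.7 (± SD, n = 2 each), or 0.34 on the log2 scale (SE 0.09, adjusted p 0.00371 by limma). Without octanoate 1 the log2 difference was 0.19 (limma adjusted p 0.156), and without vehicle 2 it was 0.30 (limma adjusted p 0.0537). In GENCODE 29, 14% of the IGFBP7 exon bases overlap exons of POLR2B on the opposite strand. Whether counting was stranded is not given in the sources used here, so reads in that stretch are uncertain. POLR2B, an RNA polymerase subunit gene, fell from a normalised count of 21785 ± 267 to one of 19595 ± 297 (± SD, n = 2 each), or -0.15 on the log2 scale (adjusted p 0.0408 by limma). IGFBP7 also overlaps an antisense gene, IGFBP7-AS1, over 4.87% of its exon bases. IGFBP5 and IRS2 overlap antisense genes over 4.63% and 1.41% of their exon bases, and the one at IGFBP5, AC007563.2, had at most 1 read in any library.

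Library 1 was above library 2 in both groups for all 6 binding proteins. The gap on the log2 scale, library 1 minus library 2, was 0.08 for IGFBP7 to 0.51 for IGFBP3 in vehicle, and 0.10 for IGFBP5 to 0.30 for IGFBP7 in octanoate. Library 1 was above library 2 in both groups for 39.9% of all tested genes and in neither group for 20.7%. Of the receptors and IRS2, only IRS2 showed this order. A link between this order and the treatment difference was not tested.

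**Figure D2:**
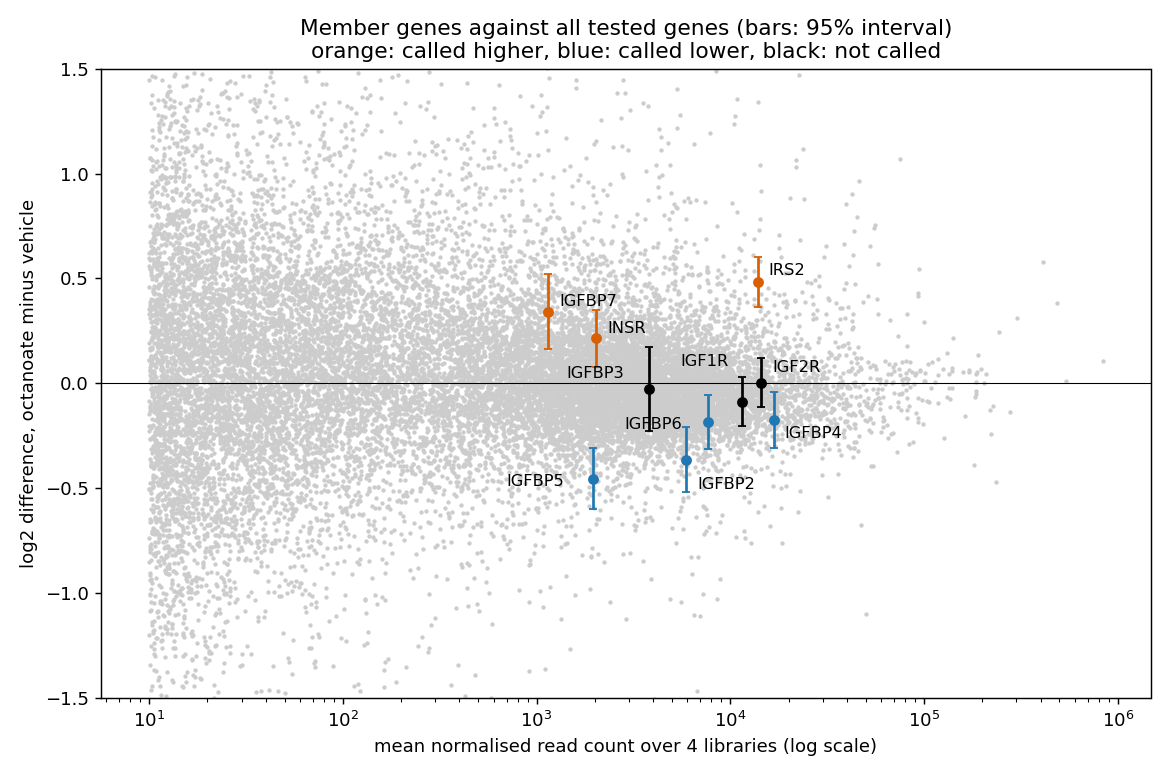
Log2 difference, octanoate minus vehicle, against the mean normalised read count (log axis) for the 10 members, with 95% intervals, over all 20250 tested genes in grey. The members lie between -0.45 (IGFBP5) and 0.48 (IRS2), and 324 genes beyond 1.5 in either direction are outside the axis.

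The receptor genes changed little. IGF1R (ENSG00000140443, chromosome 15, 98648539 to 98964530, plus strand) had 12065 and 11615 normalised counts in vehicle and 10998 and 11289 in octanoate. Both octanoate libraries were below the vehicle libraries by a small margin. The means were 11840 ± 318 and 11144 ± 206 (± SD, n = 2 each), with a log2 difference of -0.09 (95% interval -0.20 to 0.03, limma adjusted p 0.260). IGF2R (ENSG00000197081, chromosome 6, 159969099 to 160113507, plus strand) had 14825 and 14095 in vehicle and 14369 and 14595 in octanoate. The octanoate values lay within the vehicle range, and the log2 difference was 0.00 with a 95% interval from -0.11 to 0.12 (limma adjusted p 0.980).

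INSR (ENSG00000171105, chromosome 19, 7112255 to 7294034, minus strand) was the receptor gene that passed the test. It had 1933 and 1836 normalised counts in vehicle and 2179 and 2193 in octanoate. The octanoate libraries were nearly equal and above both vehicle libraries. The mean was 16.0% higher, 2186 ± 10.1 against 1884 ± 68.4 (± SD, n = 2 each), or 0.21 on the log2 scale (SE 0.07, adjusted p 0.0151 by limma). The limma adjusted p was 0.129 without vehicle 2, 0.0574 without octanoate 1 and 0.0761 without octanoate 2. Per exon length, the ratio of INSR to IGF1R was 0.214 and 0.211 under vehicle and 0.264 and 0.259 under octanoate. This ratio did not overlap between the groups. The change of INSR was not tested against that of IGF1R.

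IRS2 (ENSG00000185950, chromosome 13, 109752698 to 109786568, minus strand) had the largest change of the members. Its counts were 12056 and 11096 in vehicle and 16472 and 15856 in octanoate, so that the gap between the groups was several times the gap within either. The mean was 39.6% higher, 16164 ± 435 against 11576 ± 679 (± SD, n = 2 each), or 0.48 on the log2 scale (SE 0.06, adjusted p 6.6e-07 by limma). In the authors' deposited table the log2 fold change of IRS2 was 0.48, with an adjusted p of 1.16e-13. The related docking gene IRS1, chosen after its values were seen, averaged 2824 ± 116 normalised counts under vehicle and 2571 ± 55.7 under octanoate (± SD, n = 2 each), or -0.13 on the log2 scale (adjusted p 0.115 by limma). The ratio of IRS2 to IRS1 counts was 4.15 and 4.05 under vehicle and 6.31 and 6.26 under octanoate. The longest stretch that IRS2 shared with a transcript of another gene was 222 bases, with VPS36, and IGF2R shared 105 bases with EIF3E.

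Levels were compared between genes only as normalised counts per kilobase of exon (the union of a gene's exons in GENCODE 29, which may not be the annotation used for counting). In vehicle IGFBP4 was highest, with 8067 ± 680 per kilobase (SD, n = 2), and IGFBP6 followed with 6048 ± 351 (SD, n = 2). Both stood above all other members. IRS2 (1422 ± 83.4) and IGFBP2 (1396 ± 154) came next and overlapped each other (± SD, n = 2 each). IGFBP3 (847 ± 208) overlapped both IGF1R (849 ± 22.8) and IGF2R (810 ± 28.95), which did not overlap each other (± SD, n = 2 each). IGFBP7 followed with 523 ± 21.6, then IGFBP5 with 352 ± 22.5 and INSR with 180 ± 6.54 (± SD, n = 2 each), each clear of its neighbours.

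In octanoate IRS2, at 1986 ± 53.5 per kilobase, no longer overlapped IGFBP2, at 1085 ± 126 (± SD, n = 2 each). IGFBP7 rose to 667 ± 96.6 and stayed below IGF1R at 799 ± 14.8 (± SD, n = 2 each). IGFBP3 overlapped IGF2R, and IGF2R overlapped IGF1R. The summed level of the 6 binding proteins was 18249 and 16217 per kilobase under vehicle and 16091 and 14513 under octanoate, and fell by 11.2% in the mean. IGFBP4 and IGFBP6 made up most of this sum, and its values in vehicle 2 and octanoate 1 lay close together. The sum of the 3 receptors was 1881 and 1799 in vehicle and 1803 and 1838 in octanoate, which overlapped. With the longest transcript as the length, IGFBP3 moved up to the third place in vehicle, at 1605 per kilobase. Other orders of the vehicle means changed as well. IGF2R (1030) then stood above IGF1R (968), and IRS2 (1422) stood below IGFBP2 (1507).

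**Figure D3:**
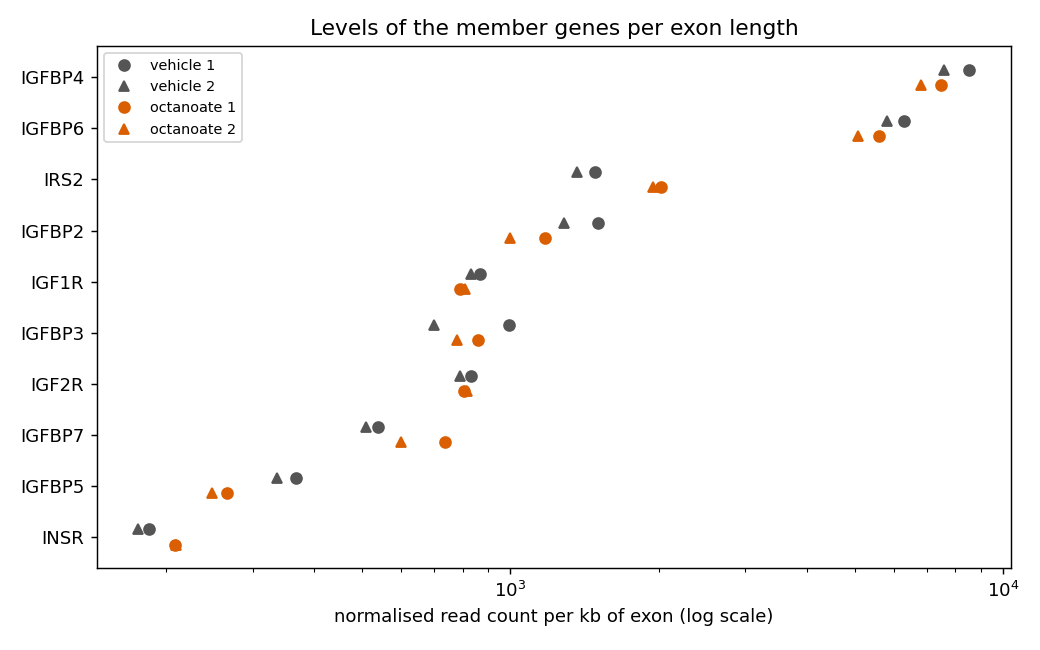
Normalised read count per kilobase of exon (log axis) of the 10 members in each library, ordered by the vehicle mean. IGFBP4 and IGFBP6 stand above the rest, and INSR is the lowest in both groups.

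The wider pathway was followed through 48 other genes in 8 lists, of which 44 were tested. Of these, 12 were called higher and 11 lower, with a median log2 difference of -0.05 against 0.01 over all tested genes. Over all tested genes 16.2% were called higher and 13.7% lower, 29.9% in all, and of genes averaging 1000 or more 38.1% were called. Few reads were counted for the ligand genes. INS had no reads in any library, which allows up to 3 reads per library. IGF2 had 1, 0, 3 and 7 reads in vehicle 1, vehicle 2, octanoate 1 and octanoate 2, and IGF1 had 6, 22, 7 and 3. These counts are too few for a comparison, and IGF2 and INS share exons with the readthrough gene INS-IGF2. IGFALS, the third partner of the circulating complex of IGF and IGFBP3 or IGFBP5, was not called (log2 difference 0.24, limma adjusted p 0.639). Of the other binding protein genes, IGFBP1 was not called and IGFBPL1 was below the filter.

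The proteases of the binding proteins and their inhibitors held the largest rise of the pathway genes. Of 7 genes, 4 were called higher (all tested genes: 16.2%) and none lower (13.7%), and the median log2 difference was 0.17. STC1, which encodes stanniocalcin 1, an inhibitor of pappalysin, had 676 and 615 normalised counts in vehicle and 3142 and 3218 in octanoate. That was a 4.92-fold rise, or 2.30 on the log2 scale (SE 0.07, adjusted p 2.93e-17 by limma). STC2, which encodes the related inhibitor stanniocalcin 2, rose 1.76-fold, from 1538 ± 30.0 to 2703 ± 51.1 (± SD, n = 2 each), or 0.81 on the log2 scale (SE 0.07, adjusted p 7.66e-10 by limma). The pappalysin gene PAPPA, chosen after its values were seen, had 65.8 and 63.0 in vehicle and 129.9 and 155.0 in octanoate. Its log2 difference was 1.13 (SE 0.18, limma adjusted p 2.59e-05). In GENCODE 29, 21.2% of the PAPPA exon bases overlap PAPPA-AS1 on the opposite strand, so part of its count is uncertain. The fourth called gene, ADAM9, named after its values were seen, had a log2 difference of 0.17 (limma adjusted p 0.0235). Its call was lost without vehicle 1 (limma adjusted p 0.114), without octanoate 1 (0.104) and without octanoate 2 (0.139).

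Genes of receptor processing and mannose 6-phosphate tagging went 1 higher and 3 lower of 5 (all tested genes: 16.2% higher, 13.7% lower). NAGPA, the enzyme that uncovers the mannose 6-phosphate tag read by IGF2R, fell from 936 ± 73.4 to 684 ± 8.99 normalised counts (± SD, n = 2 each), or -0.45 on the log2 scale (adjusted p 0.000201 by limma). FURIN, a convertase that cuts the proreceptors of IGF1R and INSR, rose from 10469 ± 603 to 11900 ± 522 (± SD, n = 2 each), or 0.19 on the log2 scale (adjusted p 0.0202 by limma). The FURIN call was lost without vehicle 2 (limma adjusted p 0.208) and without octanoate 1 (limma adjusted p 0.202).

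Among 13 adaptors and kinases below the receptors, 5 were called lower and 1 higher, with a median log2 difference of -0.13. The shares over all tested genes were 13.7% lower and 16.2% higher. Of 3 regulatory subunit genes of phosphoinositide 3-kinase in the list, PIK3R1 and PIK3R3 were called lower. The remaining gene, PIK3R2, had only 9 to 15 reads per library. In GENCODE 29, 87.2% of its exon bases overlap AC007192.1 on the same strand, so its change could not be judged. PIK3R3 fell from 1672 ± 7.82 to 1064 ± 34.9 normalised counts (± SD, n = 2 each), or -0.65 on the log2 scale (adjusted p 1.36e-07 by limma). In GENCODE 29 PIK3R3 shares 17.4% of its exon bases with AL358075.4 on the same strand. PIK3R1 fell from 2475 ± 114 to 1717 ± 106 (± SD, n = 2 each), or -0.53 on the log2 scale (adjusted p 1.91e-06 by limma). AKT1 and AKT2 were not called.

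The 10 brakes on receptor signalling moved in both directions, with 4 called higher and 3 lower (all tested genes: 16.2% and 13.7%) and a median of -0.07. SOCS2, a suppressor of cytokine and growth factor signalling, rose 1.87-fold, from 838 ± 36.7 to 1567 ± 46.1 normalised counts (± SD, n = 2 each, adjusted p by limma 1.34e-09). TRIB3, a pseudokinase that binds AKT and is also a target of ATF4, rose 1.44-fold, from 4942 ± 194 to 7100 ± 193 (± SD, n = 2 each, adjusted p by limma 2.0e-07). Of the 4 FOXO genes FOXO6 was called, rising from 80.0 ± 3.50 to 131 ± 18.6 (± SD, n = 2 each, adjusted p by limma 0.00329). That call was lost without octanoate 1 (limma adjusted p 0.0687), with DESeq2 on whole reads (adjusted p 0.0689), with no filter (limma adjusted p 0.0601) and without the intensity trend (limma adjusted p 0.0643). Of the 3 IGF2 mRNA binding proteins IGF2BP3 was called, rising 1.28-fold, from 9580 ± 178 to 12288 ± 106 (± SD, n = 2 each, adjusted p by limma 2.18e-05), and 17.9% of its exon bases overlap MALSU1 on the opposite strand. Genes on the opposite strand also overlap SOCS2 (SOCS2-AS1, 4.09% of exon bases) and NAGPA (NAGPA-AS1, 5.49%).

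**Figure D4:**
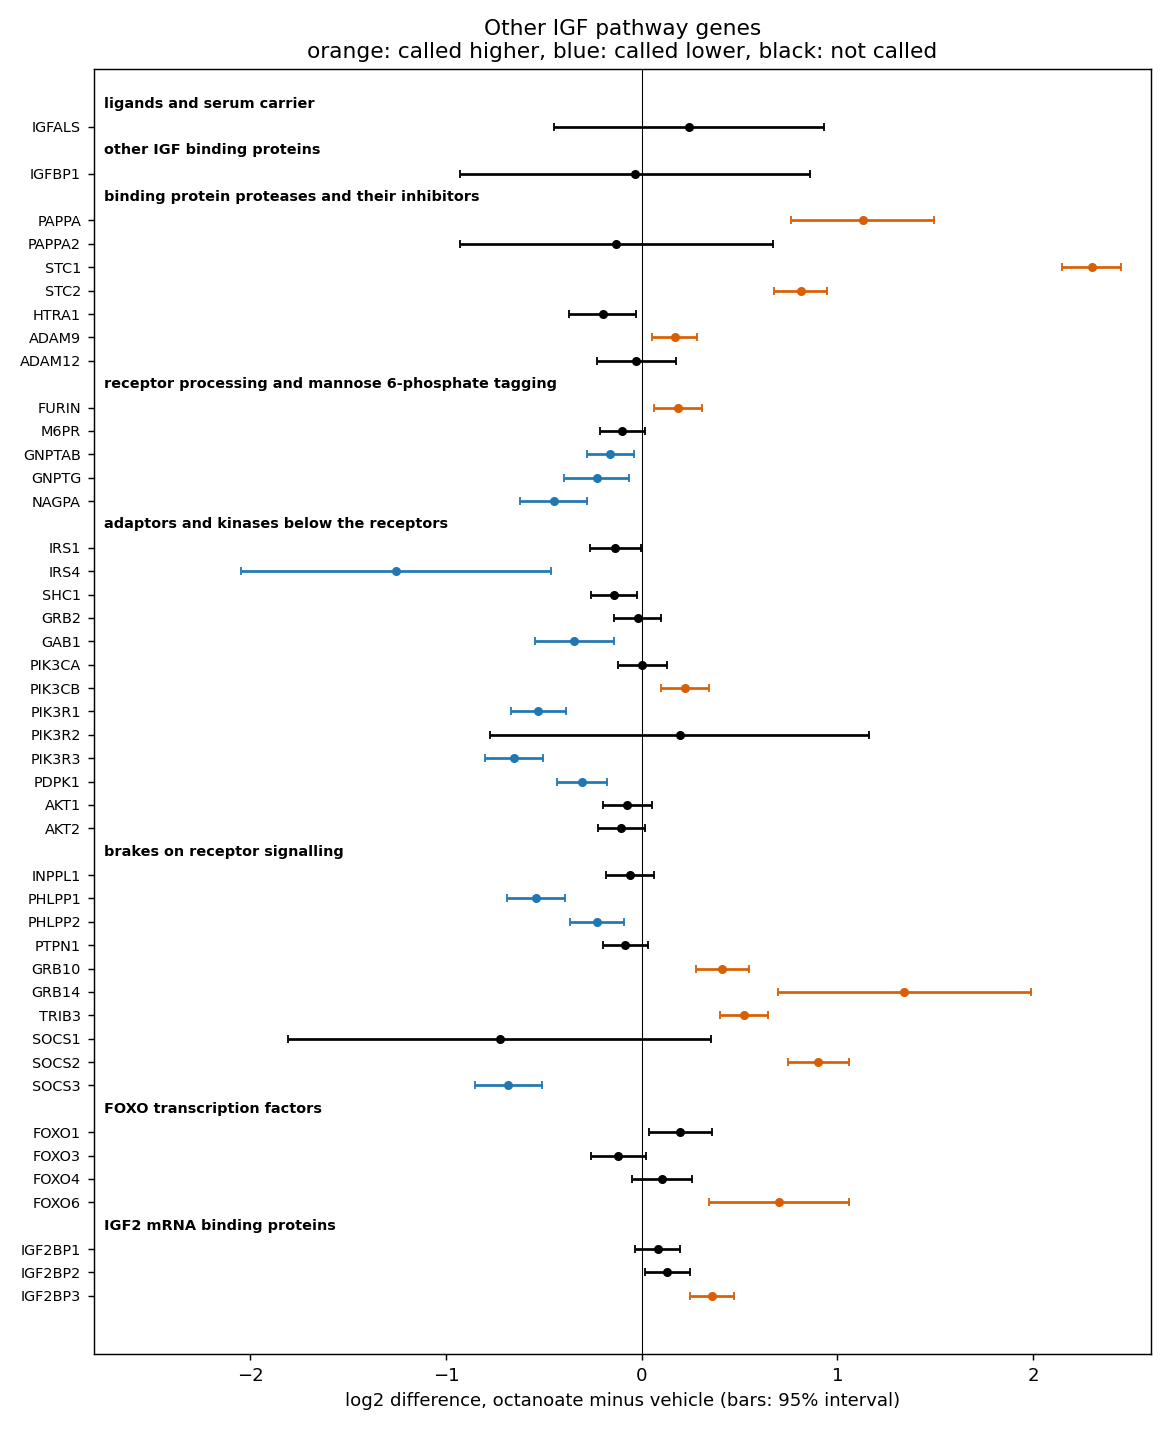
Log2 difference, octanoate minus vehicle, with 95% intervals (horizontal axis) for the 44 tested pathway genes outside the 10 members, grouped by list. STC1 has the largest rise at 2.30, and 21 of the 44 were not called (black).

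The genes most like the extremes of the members were named by the distance between centred log2 values over the 4 libraries, over 13472 other genes averaging 100 or more. SH3RF3 (distance 0.02, log2 difference 0.48) and BRSK1 (distance 0.02, log2 difference 0.50) were nearest to IRS2. MSC (distance 0.02, log2 difference -0.44) and CCDC74A (distance 0.03, log2 difference -0.46) were nearest to IGFBP5. With 4 libraries in 2 groups, such a likeness describes a similar difference between the groups and little else.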

How the data were processed

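RNA was extracted with a Zymo kit and libraries were made with the NEBNext Ultra kit, per the labels' protocols. The submitters' processing notes name bcl2fastq 2.17, Trim Galore, STAR 2.4, Picard, HTSeq 0.9.1 and DESeq2, with build hg38. Annotation and strand use are not given in the sources used here. The deposited signal is a gene count divided by 1 size factor per library. Every positive value was a whole multiple (within 0.01) of the smallest of its library (100% in each), which gave whole reads. The second deposited table is the authors' own comparison: per gene a mean of the signal, a log2 fold change and its error, a score, and raw and adjusted p-values.

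The fit used limma 3.58.1 (R 4.3.3) on log2(normalised count + 1) and let the variance prior follow intensity. Genes averaging 10 or more were tested, two-sided, with Benjamini-Hochberg adjustment over 20250 genes. An exact permutation test of 2 against 2 libraries cannot give a two-sided p below 0.333 and was not used. Alternatives used edgeR 4.0.16 and DESeq2 1.42.0 on whole reads, other scalings, filters and pseudocounts, a replicate block, each library left out, and, chosen after seeing the data, GENCODE 29 genes only and removal of GC content and length trends. The code was checked on simulated counts with known changes. Shared sequence was searched with blastn 2.17.0 (at least 95% identity over at least 100 bases).

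The members and lists were chosen with earlier results of these data known, and 2 genes of the pathway lists are not reported here. All members are named, with up to 2 called genes of smallest p per pathway list and the 2 genes nearest to the largest rise and fall.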

Additional observations from a re-analysis of the deposited data

How the results depend on the processing

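The 10 members kept 7 calls, 3 higher and 4 lower, under both pseudocounts, the filter at 50, both rescalings, edgeR, DESeq2 and both GENCODE 29 settings. The share over all genes differed between these settings. Of 20250 genes, 6037 were called with a pseudocount of 0.5, 6071 with 5, 6416 and 6582 with the rescalings and 6480 with edgeR. The filter at 50 gave 5764 of 15069 and DESeq2 4221 of 15651. GENCODE 29 genes only gave 5441 of 15183, and removal of GC content and length trends 6472 of 15183. DESeq2 called 19 pathway genes (10 higher, 9 lower). In the authors' own DESeq2 comparison 6 of the 10 members had an adjusted p under 0.05, as had 4329 of 33533 listed genes. IGFBP2 was the member that differed, with a DESeq2 adjusted p of 0.0866 there and 0.000349 here. The cause of this difference was not tested. With no filter 2 members were called (IRS2 higher, IGFBP5 lower), with 13 pathway genes (7 higher, 6 lower) and 2595 of 43449 genes in all. Without the intensity trend 0 members, 8 pathway genes (5 higher, 3 lower) and 1625 genes were called. The limma adjusted p was then 0.0531 for IRS2, 0.0668 for IGFBP5 and 0.134 to 0.323 for the other 5 called members. These fits share less variance information between genes (prior degrees of freedom 3.45 and 1.57, against 21.2), and the cause was not tested further. Leaving out 1 library gave 4 to 6 called members (1 to 4 higher, 2 to 5 lower), 17 to 20 pathway genes (9 to 12 higher, 8 to 9 lower) and 4295 to 4757 genes. IRS2, IGFBP5 and IGFBP2 were called in each, but 1 group then has 1 library, assumed to vary like the other group. Without either octanoate library the prior degrees of freedom were infinite, so the spread came from the trend over all genes. Calls in these fits therefore say little about stability. IGFBP3 was 0.23 without vehicle 1 and -0.28 without vehicle 2. Sign changes of IGF2R were never called. With the replicate number as a block, 7 members, 30 pathway genes (14 higher, 16 lower) and 8376 genes were called. The labels do not say what the numbers mark, and the deviations of same-numbered libraries correlated at 0.126 over 20250 genes. Since 75% of tested genes have a GC content, that correction cannot serve for all genes (void), but it covers all 10 members. Its log2 differences were -0.23 for IGFBP4 and -0.26 for IGFBP6. For genes such as IGFBP4 (SE 0.06), changes well under 0.2 on the log2 scale are near the limit for 2 libraries per group. The limit was wider for IGFBP3 (SE 0.10) and for genes with few reads, such as FOXO6 (SE 0.17) and IGFBP1 (SE 0.43).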
